A study of Mus musculus with 2 samples.

Results

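Solute carrier (SLC) genes encode membrane proteins that move small molecules across the plasma membrane and the membranes of organelles. The members described here were chosen by 1 rule: gene symbols that begin with Slc followed by a digit, with at least 200 UMIs (unique molecular identifiers, each counting 1 captured transcript) summed over all barcodes of both libraries. Of 32285 genes listed, 376 had such a symbol, and 160 of those reached 200 UMIs. A further 117 had fewer than 200 but at least 1, and 99 had none. All 160 members matched the mouse annotation, and 155 of them are carriers. The other 5 carry a symbol derived from a carrier without being one, such as Slc9a3r1, a scaffold protein that binds a sodium-proton exchanger. The total UMI count is thus what selected the members and is not a finding. Just inside the limit lay Slc19a2, a thiamine transporter, with 206 UMIs and Slc7a5, the light chain of a large neutral amino acid exchanger, with 205. Just outside lay Slc27a6 with 186 and Slc6a13 with 169.

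The cells were mouse splenic natural killer (NK) cells that had been sorted by flow cytometry. 1 library came from mice under dietary restriction (DR) and 1 from control mice, both profiled by droplet-based sequencing of transcript 3' ends. The labels gave no strain, age, sex, number of mice, diet or duration. With 1 library a group no difference had a replicate check, no test was possible, and the intervals below are 95% counting intervals that cover counting error only. The DR library held 42134212 UMIs over 6287 barcodes with a median of 5782, and the control library 44526828 UMIs over 5702 barcodes with a median of 7151.5. The 2 libraries shared 13 barcode sequences.

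NK cells mature from a Cd27-positive to an Itgam-positive (CD11b) state, passing through a stage that carries both. Activated NK cells raise glucose and amino acid uptake, which in lymphocytes runs largely through the glucose transporters encoded by Slc2a1 and Slc2a3 and through amino acid carriers such as Slc1a5, Slc38a2 and the Slc7a5 and Slc3a2 heterodimer. The Slc25 family sits mainly in the inner mitochondrial membrane and links the cytosol to respiration by exchanging phosphate, adenine nucleotides, metabolites and cofactors.

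Cells were clustered without SLC genes, so that no member shaped the clusters, and named from marker lists. The NK-like class held 4522 DR and 4668 control cells (77.8% and 89.1% of those kept), the ILC1-like class (type 1 innate lymphoid cells, relatives of NK cells) 404 and 324, and the B-like class 455 and 152. The T-like class held 303 DR cells but only 4 control cells, so T-like values are given for DR alone. In NK-like cells 12 of 12 NK markers lay at 20 CPM or more (counts per 1000000 UMIs) in both libraries. Markers of other cells differed between the libraries there: the summed level of 9 B cell markers was 387.8 CPM in DR and 122.7 CPM in control NK-like cells, and that of 5 cell cycle markers 79.5 and 184.9 CPM. The libraries also filled different NK-like clusters. Cluster 0, led by Gm10522 and Gp1bb, held 2059 DR and 491 control cells, cluster 1, led by Cx3cr1, 408 and 2030, cluster 2, which holds Cd27, Ctla2a and Thy1 among its leading genes, 1406 and 678, and cluster 3, led by Spp1, 205 and 928. Depth and composition moved with the groups, and their part in the differences below was tested only where an alternative value is given.

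For each class UMIs were summed over its cells and scaled to their total as CPM. Transcripts were counted by their 3' ends, so levels need no scaling by length, although capture can differ between genes. SLC genes took 0.398% of all UMIs in DR and 0.397% in control NK-like cells. Of the 160 members, 50 reached a mean of 20 CPM over both libraries in NK-like cells and are compared there. The other 110 ranged from 0.236 to 19.4 CPM with a median of 8.08 CPM. Some of these differed widely between the libraries. Slc24a3 had a UMI in 5.46% of DR and 0.17% of control NK-like cells, and Slc15a2 in 0.13% and 6.23%. In ILC1-like cells the shares were 5.94% and 0.31% for Slc24a3, and 0.25% and 6.79% for Slc15a2. These differences had no replicate and were not tested. A member was called higher in DR at a DR over control ratio at least 25% above 1, and lower at 20% or more below 1. By this size rule 2 of the 50 were called higher in DR, 4.0% of them against 3.11% of all 5853 genes at that level. None of the 50 was called lower, where 8.12% of all genes were. The median log2 ratio was -0.0013 over the 50 members and -0.067 over all genes, and 25 of the 50 members lay above 0. Scaling by the median of ratios, which centres all genes at 0, moved the background to 5.59% higher and 4.46% lower, and 5 members were then called higher and 0 lower. Without cells holding a UMI of Igkc, Cd79a, Cd3e or Trac the counts were 3 higher and 0 lower, and without cells holding one of Mki67, Top2a or Birc5 they were 1 and 1.

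The 2 members called higher in DR NK-like cells were Slc25a33 and Slc3a2. Slc25a33, a mitochondrial pyrimidine nucleotide carrier, stood at 44.1 CPM in DR and 32.7 CPM in control NK-like cells, a ratio of 1.35 (log2 0.43, interval 0.32 to 0.55). Slc3a2 encodes CD98 heavy chain, the partner that brings Slc7a5 and related light chains to the cell surface. It stood at 89.5 CPM in DR and 71.5 CPM in control NK-like cells (log2 0.33, interval 0.25 to 0.41). That ratio lay at the limit of 25%, and 2 members lay just under it. Slc38a9, a lysosomal arginine-sensing carrier that signals to the mTORC1 kinase, had 38.5 CPM in DR and 30.8 CPM in control NK-like cells (log2 0.32, interval 0.20 to 0.44). Slc25a53, a mitochondrial carrier family member, had 26.0 CPM in DR and 20.9 CPM in control cells (log2 0.32, interval 0.17 to 0.47).

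Of the members compared in NK-like cells, only Slc25a33 and Slc3a2 passed the limit between the libraries. The 250 bases before their transcript starts are shown for that reason. They come from RefSeq on build GRCm38.p6, on the minus strand in both genes, at chr4:149774268-149774517 for Slc25a33 and chr19:8713898-8714147 for Slc3a2. Capitals mark CACGTG, the E-box core, and the other 3 motifs searched on both strands were TGATGNAA (the amino acid response element core), TCACACC (a T-box core) and GCATGCGC (the core bound by NRF1).
Slc25a33: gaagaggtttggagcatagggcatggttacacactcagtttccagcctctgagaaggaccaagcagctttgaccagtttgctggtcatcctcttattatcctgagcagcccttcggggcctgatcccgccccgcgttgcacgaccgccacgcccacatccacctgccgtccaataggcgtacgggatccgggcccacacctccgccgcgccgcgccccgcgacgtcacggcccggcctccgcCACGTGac
Slc3a2: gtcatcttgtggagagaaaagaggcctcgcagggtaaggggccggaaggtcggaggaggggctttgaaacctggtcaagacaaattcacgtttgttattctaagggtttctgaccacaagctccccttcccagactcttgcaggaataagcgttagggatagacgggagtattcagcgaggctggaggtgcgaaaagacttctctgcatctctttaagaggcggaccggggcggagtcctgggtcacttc
The Slc25a33 window held 1 E-box, which begins 8 bases before the start, and none of the other 3. No letters of the 4 motifs stood in the Slc3a2 window. An E-box stood in 16 of the 121 members with a promoter entry (13.2%) and in 1634 of 27025 promoters of the same length (6.05%). The amino acid response core stood in 3 of those 121 members (2.48%) and in 3.53% of all promoters. The members were selected by their UMIs, whereas the 27025 promoters include genes not detected here. The shares thus compare unlike sets, and the difference was not tested.

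Slc25a33 and Slc3a2 differed in how the library ratio was spread over the NK-like clusters. Slc3a2 was higher in DR in all 7 clusters with at least 50 cells in each library. Its levels in the 4 largest of these were 99.1 CPM in DR and 78.5 CPM in control in cluster 0, 110.1 and 85.2 CPM in cluster 1, 78.3 and 57.8 CPM in cluster 2, and 106 and 64.5 CPM in cluster 3. With these clusters weighted equally the log2 ratio of Slc3a2 was 0.36. Slc25a33 was higher in DR in 5 of the 7, with 48.6 CPM in DR and 36.7 CPM in control in cluster 0, and 30.6 and 25.3 CPM in cluster 1. In cluster 9, led by cell cycle genes, it was lower, at 11.6 CPM in DR and 25.4 CPM in control. In cluster 3 it stood at 50.8 CPM in DR and 38.1 CPM in control. With the 7 clusters weighted equally its log2 ratio was 0.12, and 0.23 without cluster 9, where DR had 11 UMIs of it. Both values were above 0 and under the limit.

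**Figure D1:**
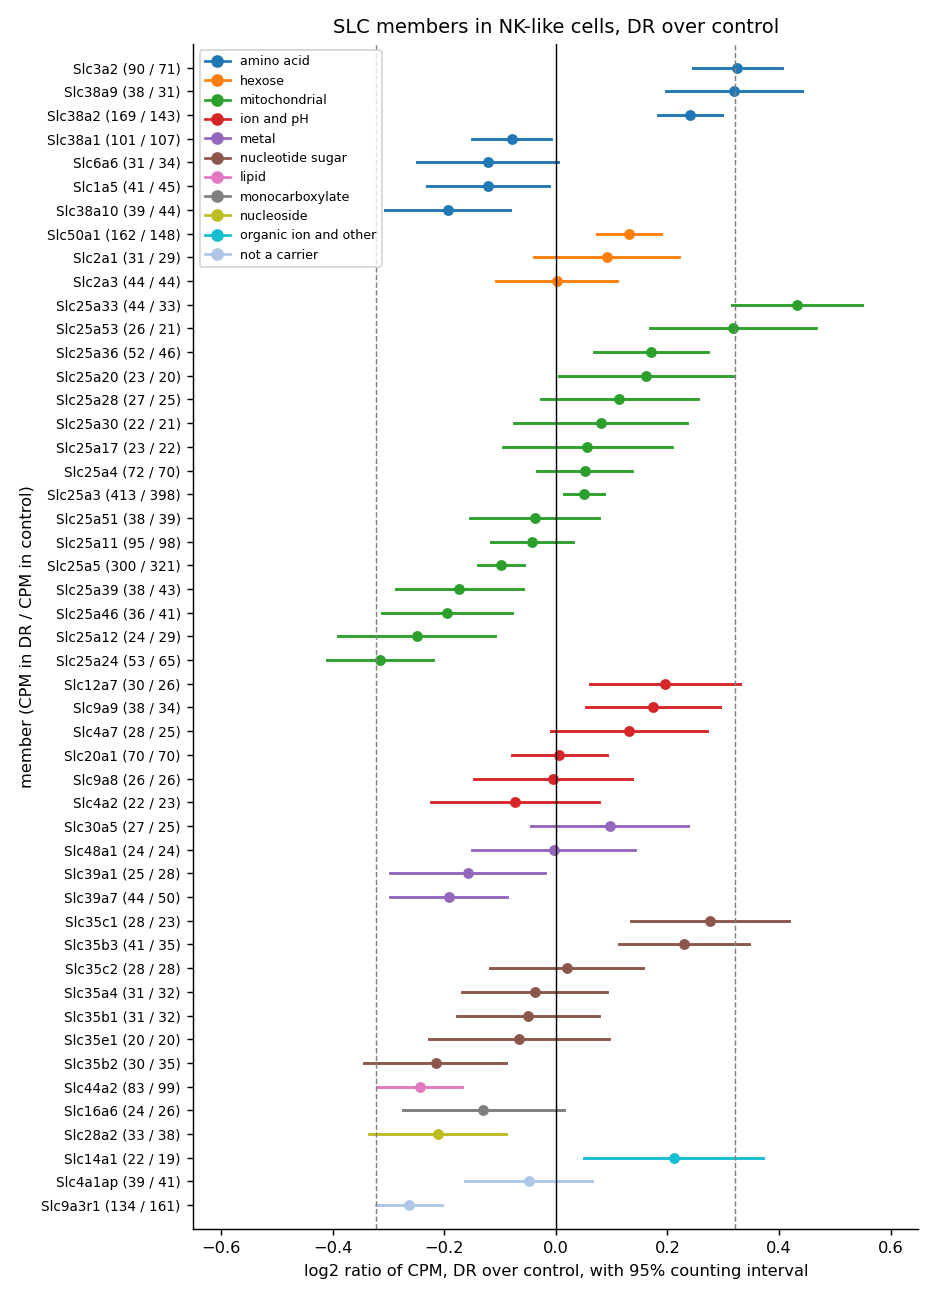
Log2 ratio of CPM, DR over control, in NK-like cells for 49 of the 50 members at 20 CPM or more, with 95% counting intervals, coloured by substrate group. The level in DR and in control follows each name, and dashed lines mark the limits of 25% higher and 20% lower. Slc25a33 and Slc3a2 lie right of the upper limit and no drawn member lies left of the lower one.

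Glucose and hexose carriers held 13 members, 3 of them at 20 CPM or more, and none was called in either direction. Their summed level was 316.6 CPM in DR and 290.7 CPM in control NK-like cells. Slc50a1, a sugar transporter of the SWEET family, was the most abundant at 162 CPM in DR and 148 CPM in control NK-like cells (log2 0.13, interval 0.07 to 0.19). Slc2a3, which encodes the high-affinity glucose transporter GLUT3, had 43.8 CPM in both (log2 0.0012, interval -0.11 to 0.11). Slc2a1, which encodes GLUT1, had 31.3 CPM in DR and 29.4 CPM in control NK-like cells (log2 0.09, interval -0.04 to 0.22). The intervals of both glucose transporters lay inside both limits.

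Amino acid carriers held 18 members, 7 of them at 20 CPM or more, of which 1 (Slc3a2) was called higher and none lower. Slc38a2, a sodium-coupled carrier of neutral amino acids that cells raise when amino acids are short, was the most abundant. It had 169 CPM in DR and 143 CPM in control NK-like cells (log2 0.24, interval 0.18 to 0.30). Its close relative Slc38a1 had 101 CPM in DR and 107 CPM in control cells (log2 -0.08, interval -0.15 to -0.01). Slc1a5, the glutamine carrier ASCT2, had 41.4 CPM in DR and 45.0 CPM in control cells (log2 -0.12, interval -0.23 to -0.01). Slc7a5 and Slc7a6, light chains that pair with Slc3a2, were scarce. Slc7a5 had 2.09 CPM in DR and 1.97 CPM in control NK-like cells, and Slc7a6 had 4.50 and 5.23 CPM, so the Slc3a2 transcript exceeded each of them many times over in these counts.

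Mitochondrial carriers made up the largest group, with 35 members and a summed level of 1479 CPM in DR and 1481.5 CPM in control NK-like cells. Of 16 at 20 CPM or more, 1 (Slc25a33) was called higher and none lower. Slc25a3, which imports phosphate for ATP synthesis, was the most abundant SLC member, at 412.5 CPM in DR and 398.5 CPM in control cells (log2 0.05, interval 0.01 to 0.09). Slc25a5, an ADP/ATP exchanger, followed at 299.8 CPM in DR and 321.0 CPM in control cells (log2 -0.10, interval -0.14 to -0.06). The annotation also lists a Slc25a5 pseudogene, and reads shared with it could have been lost or assigned elsewhere. Slc25a24, a calcium-regulated carrier that swaps ATP-magnesium for phosphate, had the lowest library ratio of the 50 members. It stood at 52.6 CPM in DR and 65.4 CPM in control NK-like cells (ratio 0.804, log2 -0.31, interval -0.41 to -0.22), just short of the limit for lower. Slc25a20, which carries acylcarnitines for fatty acid oxidation, had 22.5 CPM in DR and 20.1 CPM in control cells (log2 0.16, interval 0.01 to 0.32). Slc25a12, an aspartate-glutamate carrier of the malate-aspartate shuttle, had 24.4 and 29.0 CPM in DR and control (log2 -0.25, interval -0.39 to -0.11).

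Metal carriers held 24 members, of which 4 reached 20 CPM and none was called. Slc39a7, which releases zinc from the endoplasmic reticulum, had 44.1 CPM in DR and 50.4 CPM in control NK-like cells (log2 -0.19, interval -0.30 to -0.09). Slc39a1, a zinc importer of the plasma membrane that also has a listed pseudogene, had 25.5 CPM in DR and 28.4 CPM in control cells (log2 -0.16, interval -0.30 to -0.02). Slc30a1, which exports zinc, lay under the level compared, at 10.9 CPM in DR and 8.76 CPM in control cells. The iron exporter ferroportin, Slc40a1, had 0.144 CPM in DR and 0.329 CPM in control NK-like cells. Its UMIs came mostly from cluster 11, an unnamed cluster led by C1qa, C1qb and C1qc, where it stood at 164.6 CPM in 72 DR cells and 281.3 CPM in 49 control cells. It was itself among the 10 leading genes of that cluster, which was clustered without it.

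Lipid carriers held 6 members and 1 at 20 CPM or more. Slc44a2, a choline transporter-like protein, had 83.3 CPM in DR and 98.7 CPM in control NK-like cells (log2 -0.24, interval -0.32 to -0.17), which did not reach the limit for lower. The fatty acid transport protein Slc27a4 was at 8.81 CPM in DR and 11.1 CPM in control cells. Among the monocarboxylate carriers Slc16a6 was the most abundant, at 23.9 CPM in DR and 26.2 CPM in control cells (log2 -0.13, interval -0.28 to 0.01). The lactate carriers Slc16a1, with 4.68 and 4.35 CPM in DR and control, and Slc16a3, with 2.81 and 4.02 CPM, lay far below it.

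The remaining groups held no called member in NK-like cells. 7 ion and pH carriers reached 20 CPM, led by the phosphate importer Slc20a1 with 70.4 CPM in DR and 70.1 CPM in control cells (log2 0.01, interval -0.08 to 0.09). 7 nucleotide sugar carriers of the Golgi and endoplasmic reticulum reached 20 CPM, with log2 ratios from -0.22 for Slc35b2, which imports the sulfate donor PAPS, to 0.28 for the GDP-fucose transporter Slc35c1. The nucleoside importer Slc28a2 had 32.5 CPM in DR and 37.7 CPM in control cells (log2 -0.21, interval -0.34 to -0.09). Of the members that are not carriers, Slc9a3r1 had 134 CPM in DR and 160.6 CPM in control cells (log2 -0.26, interval -0.32 to -0.20).

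Few genes were called in the lists of related genes. Of all genes in NK-like cells 3.11% were called higher and 8.12% lower. The lists are too short for their counts to be set against those shares. Of 5 partner subunits, all at 20 CPM or more, 1 was called higher and 0 lower in DR NK-like cells. The 1 was Emb (embigin), an accessory protein of lactate carriers, at 135.1 CPM in DR and 75.2 CPM in control cells (log2 0.85, interval 0.77 to 0.92). Its level was lower in Itgam-only than in Cd27-only cells, 0.166 of it in DR and 0.065 of it in control, and Cd27-only cells made up 20.6% of DR and 14.1% of control NK-like cells. Within the stages its log2 ratio of DR over control was 0.20 in Cd27-only cells, 1.02 in double-positive cells and 1.56 in Itgam-only cells. Bsg (basigin), which plays the same part, had 183.9 CPM in DR and 210.3 CPM in control cells (log2 -0.19). Of 38 transporters outside the Slc symbols, 20 reached 20 CPM and 1 was called lower, the calcium pump gene Atp2a2, with 36.3 CPM in DR and 46.8 CPM in control cells (log2 -0.37). Of 17 regulators of transporters, 12 reached that level and 1 was called lower, Hif1a, a hypoxia factor that drives glucose transporter genes, with 35.9 CPM in DR and 47.6 CPM in control cells (log2 -0.41). Txnip, which promotes the removal of glucose transporters from the cell surface, had 635.4 CPM in DR and 538.3 CPM in control cells (log2 0.24).

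Between NK stages the members differed most in 2 mitochondrial carriers of adenine nucleotides. NK-like cells were split by whether they had a UMI of Cd27, of Itgam, of both or of neither. The Cd27-only stage held 930 DR and 660 control cells, the double-positive stage 958 and 1047, and the Itgam-only stage 1579 and 2247. A member was called when the Itgam-only over Cd27-only ratio passed 1.5 the same way in each library. Of 51 members at 20 CPM or more, 1 (1.96%) was called higher in Itgam-only cells, against 3.37% of all genes, and 1 was called lower, against 2.37%, so the share of members called was no larger than that of all genes. The median log2 ratio over members was 0.09 in DR and 0.11 in control, and over all genes 0.11 and 0.10.

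The member called lower was Slc25a4, the ADP/ATP exchanger ANT1. Over the Cd27-only, double-positive and Itgam-only stages it stood at 95.03, 86.0 and 43.8 CPM in DR NK-like cells and at 109, 88.4 and 42.7 CPM in control NK-like cells. The Itgam-only over Cd27-only ratio was 0.461 in DR (interval 0.405 to 0.524) and 0.392 in control (interval 0.352 to 0.436). The member called higher was Slc25a24. Over the same 3 stages it stood at 39.0, 51.3 and 65.2 CPM in DR and at 44.6, 63.6 and 76.2 CPM in control cells. Its ratio was 1.67 in DR (interval 1.45 to 1.94) and 1.71 in control (interval 1.502 to 1.95). Slc25a4 was lowest and Slc25a24 highest in Itgam-only cells of both libraries. A stage set by UMIs depends on depth, and Itgam-only cells were shallower than Cd27-only cells, with medians of 5027 against 7004.5 UMIs in DR and 6684 against 9140 in control. Cells were then thinned to 3000 UMIs and their stages set anew from the thinned counts. This left out 209 DR and 252 control NK-like cells with fewer UMIs. Slc25a4 was still called lower, with ratios of 0.480 in DR and 0.439 in control. The Slc25a24 ratio was then smaller, 1.12 in DR (interval 0.897 to 1.41) and 1.38 in control (interval 1.10 to 1.74), and passed the limit in neither library. Both calls were kept without the cell cycle cluster.

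The 250 bases before the transcript start of these 2 genes are shown as the pair called in opposite directions along the stages. Slc25a4 lies on the minus strand at chr8:46211063-46211312 and Slc25a24 on the plus strand at chr3:109122899-109123148, both on build GRCm38.p6 from RefSeq. None of the 4 motifs above was found in either window, so no letter is in capitals.
Slc25a4: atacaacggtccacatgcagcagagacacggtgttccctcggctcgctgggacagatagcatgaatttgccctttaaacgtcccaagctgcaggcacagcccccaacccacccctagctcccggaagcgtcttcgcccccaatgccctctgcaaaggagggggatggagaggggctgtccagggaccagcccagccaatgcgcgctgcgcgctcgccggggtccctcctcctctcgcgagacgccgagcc
Slc25a24: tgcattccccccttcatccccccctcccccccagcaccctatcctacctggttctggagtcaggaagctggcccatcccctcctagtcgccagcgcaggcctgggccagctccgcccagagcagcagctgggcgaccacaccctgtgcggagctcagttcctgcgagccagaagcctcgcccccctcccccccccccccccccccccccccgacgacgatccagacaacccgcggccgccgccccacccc
GC content was 64.8% in the Slc25a4 window and 72.8% in the Slc25a24 window, which holds a long run of C.

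The other adenine nucleotide carrier, Slc25a5, stayed abundant in each stage. It stood at 320.1, 308.1 and 270.1 CPM over the 3 stages in DR and at 391.9, 331.2 and 278.4 CPM in control cells, and its Itgam-only over Cd27-only ratio was 0.844 in DR and 0.711 in control. Slc38a1 ran the same way, at 127, 99.8 and 86.2 CPM in DR and 132, 105 and 95.6 CPM in control cells, with ratios of 0.681 and 0.727 that missed the 1.5 limit. Slc11a2, an importer of iron and manganese that lay under 20 CPM in both stages, had 18.1, 14.4 and 10.3 CPM in DR and 18.9, 13.4 and 8.97 CPM in control cells.

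Both glucose transporters had a larger Itgam-only over Cd27-only ratio in control than in DR cells. Slc2a3 stood at 40.8, 43.8 and 47.8 CPM over the 3 stages in DR and at 30.9, 41.9 and 51.5 CPM in control cells, and its Itgam-only over Cd27-only ratio was 1.17 in DR (interval 1.005 to 1.37) and 1.67 in control (interval 1.43 to 1.96). Slc2a1 stood at 31.9, 31.0 and 32.8 CPM in DR and at 23.4, 28.3 and 31.4 CPM in control cells, with ratios of 1.03 (interval 0.858 to 1.23) and 1.34 (interval 1.12 to 1.62). Within Cd27-only cells the log2 ratio of DR over control was 0.40 for Slc2a3 (interval 0.14 to 0.67) and 0.45 for Slc2a1 (interval 0.15 to 0.76). Within Itgam-only cells the log2 ratio was -0.11 for Slc2a3 and 0.06 for Slc2a1, and both intervals held 0. Cd27-only cells were shallower in DR than in control, with medians of 7004.5 and 9140 UMIs. With cells thinned as above but kept in these stages, 8.56% of DR and 8.50% of control Cd27-only cells had a Slc2a1 UMI. The Slc2a1 difference thus did not show in shares at equal depth. For Slc2a3 the shares were 11.1% and 8.50%. In thinned Itgam-only cells the DR and control shares were 8.0% and 9.8% for Slc2a1, and 13.5% and 14.1% for Slc2a3. The difference between stages in the library ratio had no replicate and was not tested. Slc3a2 was higher in DR in each stage, at log2 0.52 in Cd27-only, 0.27 in double-positive and 0.34 in Itgam-only cells. Slc25a33 had log2 ratios of 0.18, 0.42 and 0.63 over the same stages, and its Itgam-only level was 43.4 CPM in DR and 28.0 CPM in control cells.

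**Figure D2:**
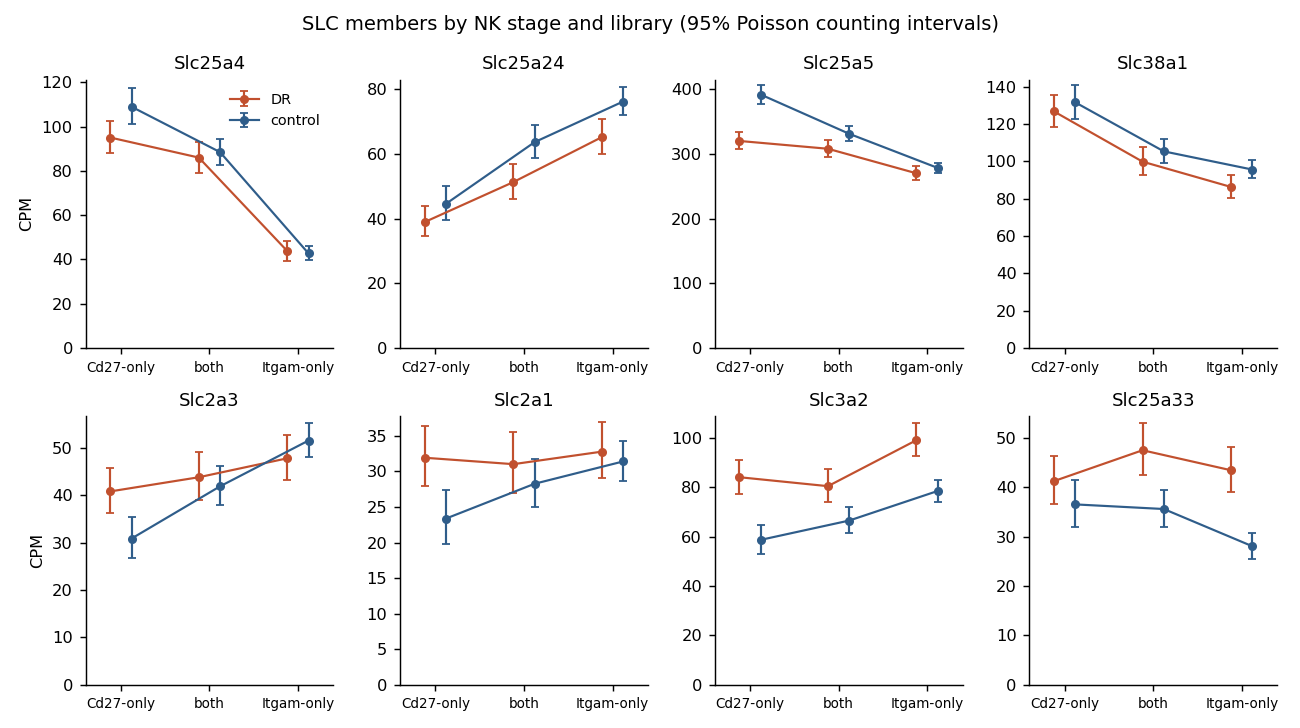
CPM of 8 members in Cd27-only, double-positive (both) and Itgam-only NK-like cells, with DR in orange and control in blue and 95% Poisson counting intervals. Slc25a4 is lowest and Slc25a24 highest in Itgam-only cells of both libraries, and Slc3a2 is higher in DR in every stage.

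In the NK-like cluster led by cell cycle genes, Slc29a1, Slc25a4, Slc25a5 and Slc7a1 were past 1.5-fold higher than in other NK-like cells, while the share of members called was near that of all genes. Cluster 9 held 58 DR and 103 control cells at median depths of 15420 and 19527 UMIs. Of 47 members at 20 CPM or more, 4 (8.51%) were past 1.5-fold higher than in other NK-like cells in each library, against 11.8% of all genes, and 9 (19.1%) past 1.5-fold lower, against 15.6%. Slc29a1, the nucleoside carrier ENT1 that feeds nucleotide salvage, stood at 51.6 CPM in DR and 65.6 CPM in control cycling cells, which was 5.08 and 5.59 times its level in the other NK-like cells of DR and control. Slc25a4 stood at 238.0 CPM in DR and 147.9 CPM in control cycling cells (3.60 and 2.28 times the other cells), and Slc25a5 at 689.7 and 547.2 CPM (2.41 and 1.78 times). Slc7a1, a carrier of cationic amino acids such as arginine, had 28.4 CPM in DR and 33.5 CPM in control cycling cells (1.66 and 2.34 times). Slc29a1 and Slc7a1 reached 20 CPM only through the cycling cells, which fixed their direction over the libraries. Slc2a3, at 11.6 CPM in DR and 19.6 CPM in control, and Slc2a1, at 21.1 and 15.8 CPM, were among the 9 that were lower there. Both glucose transporters, and others of the 9 such as Slc12a7, reached a mean of 20 CPM only through the other NK-like cells. This fixed their direction, so the number called among them says nothing about the members. In cluster 6, led by Batf3, 3 of 52 members (5.77%) were past 1.5-fold higher than in other NK-like cells, against 3.95% of all genes, and 2 (3.85%) past 1.5-fold lower, against 6.96%. In cluster 8, led by Ccl1, 2 of 50 (4.0%) were higher, against 2.72%, and 1 (2.0%) lower, against 1.53%. Slc7a1 and Slc39a6, higher in cluster 6, reached 20 CPM only through that cluster, and the lower Slc25a24 and Slc2a1 only through the other NK-like cells. In cluster 8, Slc7a1 reached it only through that cluster and the lower Slc25a33 only through the other cells. This fixed their direction, so the shares called in these clusters say nothing about the members.

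**Figure D3:**
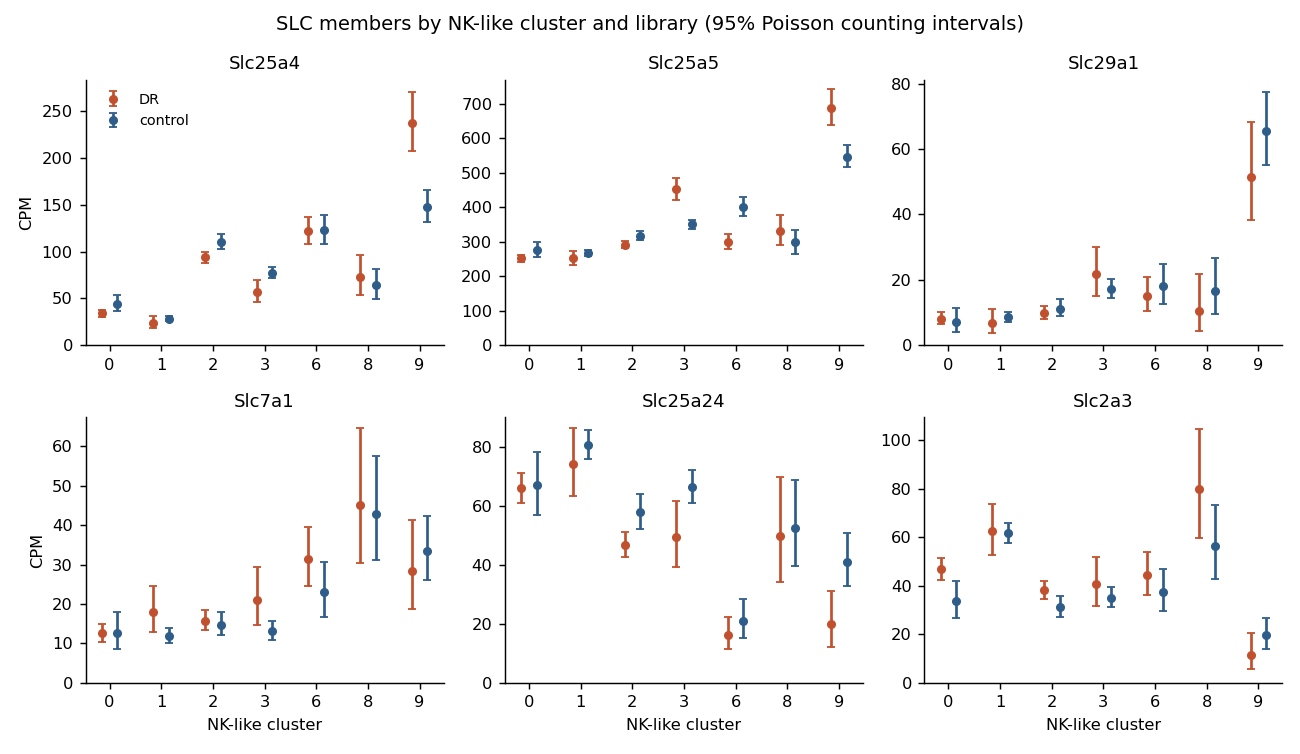
CPM of 6 members in the 7 NK-like clusters with at least 50 cells in each library, DR in orange and control in blue, with 95% Poisson counting intervals. Slc25a4, Slc25a5 and Slc29a1 are highest and Slc2a3 lowest in cluster 9, led by cell cycle genes, and Slc25a24 is lowest in cluster 6 in DR and control alike.

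5 members were past 1.5-fold from their NK-like level in ILC1-like cells of each library, among them the metal carrier Slc11a2 and the glucose transporter Slc2a1. Of 55 members at 20 CPM or more in the comparison, 3 (5.45%) were past 1.5-fold higher in ILC1-like cells of each library, against 5.07% of all genes. 2 (3.64%) were past 1.5-fold lower, against 3.97%. Both shares were near those of all genes. Slc11a2, the divalent metal transporter DMT1, stood at 36.3 CPM in DR and 33.8 CPM in control ILC1-like cells, against 13.7 and 12.2 CPM in DR and control NK-like cells. Its ratio was 2.65 in DR (interval 2.12 to 3.28) and 2.77 in control (interval 2.19 to 3.47), and it reached 20 CPM only through the ILC1-like level. Slc4a7, a sodium-bicarbonate cotransporter that raises cell pH, had 51.9 CPM in DR and 41.4 CPM in control ILC1-like cells, against 27.8 and 25.4 CPM in DR and control NK-like cells. Slc35e1, a member of the nucleotide sugar family, was the third, with ratios of 1.51 in DR and 1.77 in control.

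Slc2a1 stood at 16.6 CPM in DR and 18.9 CPM in control ILC1-like cells, against 31.3 and 29.4 CPM in DR and control NK-like cells (ratios 0.532 and 0.643), and it reached 20 CPM only through the NK-like level. Slc25a33 was the other member past the limit, at 27.0 CPM in DR and 19.98 CPM in control ILC1-like cells, with a ratio of 0.612 in each library. Slc2a3 did not share the direction of Slc2a1. It had 66.9 CPM in DR and 51.6 CPM in control ILC1-like cells, with ratios over NK-like cells of 1.53 in DR (interval 1.31 to 1.77) and 1.18 in control (interval 0.985 to 1.40). Slc38a1 was at 143 CPM in DR and 161 CPM in control ILC1-like cells, and its ratios were 1.42 and 1.502.

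Within ILC1-like cells 1 of 60 members (1.67%) was past 1.5-fold higher in DR than in control, against 1.44% of all genes, and 1 (1.67%) past 1.5-fold lower, against 2.33%. The higher one was the urea transporter Slc14a1, at 25.6 CPM in DR and 17.1 CPM in control ILC1-like cells (log2 0.59, interval 0.04 to 1.14). The lower one was the mitochondrial citrate carrier Slc25a1, at 18.6 CPM in DR and 29.1 CPM in control ILC1-like cells (log2 -0.64, interval -1.16 to -0.13). Slc14a1 reached a mean of 20 CPM only through its DR level, and Slc25a1 only through its control level. This fixed the direction of both but not the size of the ratio.

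B-like cells had members past the limit over NK-like cells in both directions, with Slc25a37 highest and Slc25a24 lowest. Of 49 members compared, 8 (16.3%) were past 1.5-fold higher in B-like cells of each library, against 9.68% of all genes. 5 of the 8, Slc15a4, Slc7a1, Slc29a3 and Slc25a37 among them, reached 20 CPM only through the B-like level. In all, 6 members did so, which fixed their direction over the libraries but not the size of the ratio. The number called among them thus says nothing about the members. 9 (18.4%) were past 1.5-fold lower, against 25.1%, and 8 of those 9, all but Slc9a3r1, reached 20 CPM only through the NK-like level. The median log2 ratio over members was -0.11 in DR and -0.24 in control, and over all genes -0.29 and -0.32. The B-like cells themselves could hold free NK cell RNA. The levels of 7 NK transcripts there, Gzma and Ncr1 among them, were 1.49% to 2.11% of their NK-like level in DR and 2.82% to 4.67% in control.

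Of the 8 members called higher in B-like cells, 5 were carriers of lysosomes or mitochondria. Slc25a37, the mitochondrial iron importer mitoferrin 1, stood at 39.7 CPM in DR and 41.7 CPM in control B-like cells, against 7.88 and 8.10 CPM in DR and control NK-like cells (ratios 5.04 and 5.15). Slc15a4, a lysosomal histidine and peptide carrier needed for Toll-like receptor signalling in B cells, had 43.3 CPM in DR and 48.0 CPM in control B-like cells, against 11.5 and 12.7 CPM in DR and control NK-like cells. The lysosomal nucleoside carrier Slc29a3 had ratios of 2.37 in DR and 3.59 in control. Slc25a4 stood at 149.9 CPM in DR and 153.1 CPM in control B-like cells, with ratios of 2.08 in DR (interval 1.89 to 2.28) and 2.20 in control (interval 1.91 to 2.53).

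The member furthest below its NK-like level in B-like cells was Slc25a24, at 3.05 CPM in DR and 4.87 CPM in control B-like cells, 0.0581 and 0.0745 of the NK-like level in DR and control. Slc20a1 had 14.8 CPM in DR and 15.3 CPM in control B-like cells, against 70.4 and 70.1 CPM in DR and control NK-like cells. Slc25a33 had ratios of 0.179 in DR and 0.298 in control, and Slc2a3 of 0.331 and 0.492. Slc38a10 was at 16.8 CPM in DR and 23.0 CPM in control B-like cells. Slc9a3r1 had 46.6 CPM in DR and 71.0 CPM in control B-like cells, against 134 and 160.6 CPM in DR and control NK-like cells. Within B-like cells none of 38 members was past 1.5-fold higher in DR than in control, where 1.91% of all genes were. 2 (5.26%) were past 1.5-fold lower, against 3.95%, namely Slc9a3r1 (log2 -0.61, interval -0.96 to -0.24) and Slc28a2, with 34.6 CPM in DR and 57.7 CPM in control B-like cells (log2 -0.74, interval -1.14 to -0.33). The make-up of the B-like class differed between the libraries. The plasma cell marker Jchain stood at 1133 CPM in DR and 1.39 CPM in control B-like cells. Cluster 14, a shallow B-like cluster, held 19 of the 455 DR and 34 of the 152 control cells. The part of this make-up in the 2 ratios was not tested.

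T-like cells, compared in the DR library alone, had Slc25a4 at 156 CPM, against 72.0 CPM in NK-like cells, and Slc38a2 at 101 CPM, against 169 CPM. Of 47 members compared, 2 (4.26%) were past 1.5-fold higher than in DR NK-like cells, against 7.75% of all genes, and 17 (36.2%) past 1.5-fold lower, against 24.8%. Of the 17, 8 reached 20 CPM only through the NK-like level, with both glucose transporters, Slc25a24 and Slc25a33 among them. In all, 11 members reached it that way, which fixed their direction but not the size of the ratio. The median log2 ratio was -0.24 over members and -0.29 over all genes. Slc2a3 stood at 19.2 CPM in T-like and 43.8 CPM in NK-like cells of the DR library (ratio 0.438, interval 0.324 to 0.580), and Slc2a1 at 16.2 CPM in T-like and 31.3 CPM in NK-like cells (ratio 0.518, interval 0.372 to 0.703). The Slc38a2 ratio was 0.596. Slc25a24 had 9.04 CPM in T-like and 52.6 CPM in NK-like cells (ratio 0.172), and Slc25a33 11.7 and 44.1 CPM (ratio 0.265). The 2 higher ones were Slc25a4 (ratio 2.17, interval 1.95 to 2.41) and the glutathione carrier Slc25a40, at 25.2 CPM in T-like and 15.3 CPM in NK-like cells (ratio 1.65), which reached 20 CPM only through the T-like level. With no T-like cells to speak of in the control library, these values describe 1 library.

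**Figure D4:**
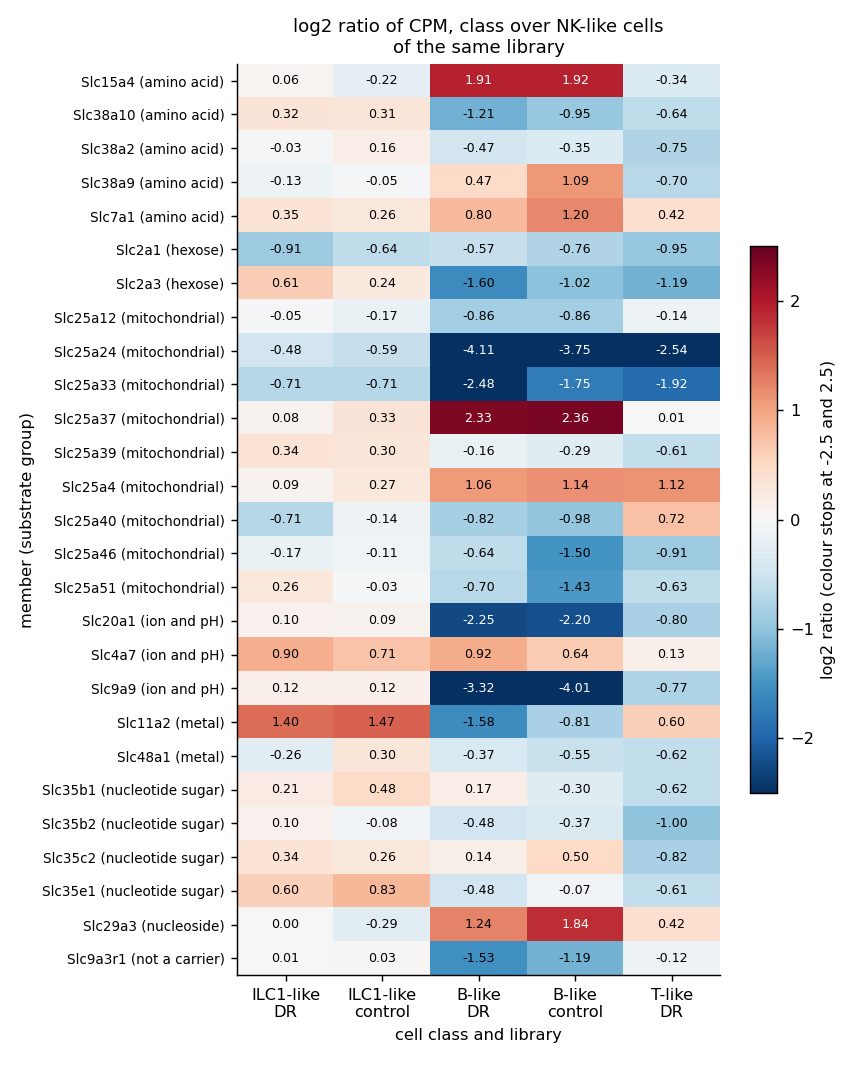
Log2 ratio of CPM in ILC1-like, B-like and T-like cells over NK-like cells of the same library, for 27 members called in any of the 3 comparisons, with red higher and blue lower than in NK-like cells. Slc25a24 and Slc25a33 are lower than in NK-like cells in all 5 columns, Slc25a4 is over 2-fold higher in B-like and T-like cells, and Slc11a2 is highest in the ILC1-like columns.

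The 2 libraries gave like orders of members in the comparisons between classes, as a description over members measured in the same libraries. The comparisons with ILC1-like, B-like and T-like cells share the same NK-like cells and are not set against each other. The Spearman correlation of the DR and control ratios was 0.931 over 45 members for B-like over NK-like cells, 0.807 over 53 members for ILC1-like over NK-like cells, and 0.666 over 48 members for Itgam-only over Cd27-only cells.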

How the data were processed

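Both deposited matrices held raw UMI counts per gene and cell barcode, which the authors wrote with Cell Ranger 5.0.1 per the file headers. The submitters' processing notes name Cell Ranger 2.1.1 and mm10; which version was used is not settled by the sources. Library chemistry was 10x Genomics 3' v3.1, per the labels' protocols. Filtering on 500 or more genes and no more than 10% mitochondrial UMIs left out 167 DR and 215 control barcodes. Doublets were scored against simulated ones, and the top 0.8% per 1000 cells were removed (306 DR, 5%; 247 control, 4.50%), leaving 5814 DR and 5240 control cells. No deposited barcode had under 501 UMIs, so free RNA could not be subtracted.

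Both libraries were clustered together (scanpy 1.11.5, leidenalg 0.10.2) without SLC and mitochondrially encoded genes, on 2000 variable genes, 30 principal components, 15 neighbours and Leiden resolution 0.6. A cluster took a name with at least 3 markers and 50% of a list at 20 CPM or more and 25% of the highest cluster's level. Summed counts per class and library gave CPM, ratios with exact conditional binomial intervals and levels with exact Poisson intervals (SciPy 1.17.1); a count of 0 was set to 3 counts in a ratio. Calls were by size alone, at a mean of 20 CPM: 25% higher or 20% lower between libraries in NK-like cells, and 1.5-fold elsewhere, in each library where both had the cells. The code was tested on simulated counts. Alternatives covered scaling, the level required, cell filters, stage and cluster weights, depth and limits.

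Members and gene lists were chosen with earlier results of these data known. Named members were the 10 ranked highest and lowest between libraries, the 3 most abundant of each substrate group, the 6 most different each way per stage or class, a fixed list of known carriers, and those next to the 200 UMI limit; members of other clusters were named after their values were seen. Slc24a3 and Slc15a2 were also named after their values were seen. Substrate groups follow carrier family names. 2 members are counted in every total but are not reported here by name or drawn.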

Additional observations from a re-analysis of the deposited data

Results flagged for a closer look

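The libraries differed in opposite directions between cell sets for 2 members, and neither difference was tested, since each group had 1 library. All members were looked through for such pairs over the NK stages, ILC1-like cells and B-like cells. The share of all genes with such a pair was not computed, so the count of 2 says nothing about the members. Slc12a7, a potassium-chloride cotransporter, differed by a log2 DR over control ratio of 0.407 in Itgam-only NK-like cells, at 36.4 CPM in DR and 27.5 CPM in control, and of -0.541 in ILC1-like cells, at 17.97 and 26.2 CPM in DR and control. Slc4a2, an anion exchanger that swaps chloride for bicarbonate, had a log2 ratio of 0.381 in Cd27-only NK-like cells, at 22.9 CPM in DR and 17.6 CPM in control, and of -0.597 in NK-like cells with neither Cd27 nor Itgam, at 19.9 and 30.1 CPM in DR and control. Slc12a7 in ILC1-like cells, and Slc4a2 in both of its sets, reached a mean of 20 CPM only through the library where they were higher. This fixed their direction there.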

How the results depend on the processing

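Of 82 counts of called members recomputed under other settings, 37 stayed within 1.5 times the reported count. The 2 ratios called in NK-like cells, Slc25a33 and Slc3a2, kept their sign. Some ratios that were not called changed sign. The log2 ratio of Slc2a1 went from 0.09 to as low as -0.16, of Slc25a4 from 0.05 to -0.15, and of Slc25a5 from -0.10 to as high as 0.06. Each count lists members higher, then lower, in DR than in control NK-like cells, where the reported ones are 2 and 0. The higher count was 5 with median-of-ratios scaling, 6 without ribosomal and mitochondrial genes in the total, and 4 with the 4 stages weighted equally. The counts were 11 and 7 at 5 CPM, 1 higher at 50 CPM, and 17 and 14 with no level required. They were 1 and 1 with doublets kept and also without cells holding Mki67, Top2a or Birc5, 1 and 3 with cells thinned to 3000 UMIs, and 0 higher at a ratio of 1.5. Slc25a24 was the lower one in the first 2 of these and 1 of the 3 in the thinned cells. For Itgam-only over Cd27-only cells (1 and 1) the counts were 6 and 6 at 5 CPM, 7 and 10 with no level required, and 0 higher with thinned cells and at a 2-fold limit. For ILC1-like over NK-like cells (3 and 2) they were 10 higher at 5 CPM, 0 and 0 at 50 CPM, 11 and 7 with no level required, 1 lower with doublets kept, and 1 and 0 at 2-fold. For B-like cells (8 and 9) they were 13 and 29 at 5 CPM, 2 and 1 at 50 CPM, 14 and 38 with no level required, and 5 and 5 at 2-fold. For T-like cells (2 and 17) they were 14 and 37 at 5 CPM, 1 and 3 at 50 CPM, 17 and 51 with no level required, and 1 and 3 at 2-fold. The cause of these changes was not tested beyond the settings' own construction (more or fewer genes compared). Equal weighting of clusters, with and without the cell cycle cluster, was chosen after seeing the data and gave 2 and 0, with Slc38a9 in place of Slc25a33. Leaving out the cell cycle cluster was chosen then too. No paired analysis was possible because each group has 1 library. Small clusters limit precision, and a member near 20 CPM in 58 cells rests on few UMIs.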

Other observations

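Levels of some members in 2 further NK-like clusters were chosen after they were seen and are given as values with no test. The shares of members called in them are given above, beside those of all genes. Cluster 8, led by Ccl1 and Nr4a1, held 96 DR and 118 control cells. Slc7a1 stood there at 45.2 CPM in DR and 42.9 CPM in control, 2.69 and 2.93 times its level in the other NK-like cells, and the zinc importer Slc39a1 at 45.2 and 44.9 CPM (1.81 and 1.61 times). Slc7a1 reached the level compared, 20 CPM, only through cluster 8. Slc25a33 was at 21.1 CPM in DR and 18.5 CPM in control cells of that cluster. Cluster 6, led by Batf3 and Gpr55, held 233 DR and 170 control cells. There Slc25a24 stood at 16.3 CPM in DR and 20.9 CPM in control, 0.292 and 0.308 times its level in the other NK-like cells, and Slc25a4 at 122.2 and 123.1 CPM in DR and control. Slc25a24 reached the level compared only through the other NK-like cells.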
